A study of Mus musculus with 6 samples.

Results

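MHC class I molecules carry short peptides from inside the cell to its surface, where CD8 T cells read them. The 10 genes described here make the parts of that route: the heavy chains H2-K1, H2-D1 and H2-Q4, the light chain beta-2 microglobulin (B2m), the peptide transporter subunits Tap1 and Tap2, the loading protein tapasin (Tapbp), and the catalytic immunoproteasome subunits Psmb8, Psmb9 and Psmb10. Members were probe sets whose platform annotation names 1 of these symbols and no other, and for a gene with several such probe sets the one with the highest mean over the 6 arrays. This found 9 of the 10 genes, and all 9 were among the 15526 genes tested out of 22180 with a probe set. The probe set that lists H2-D1 also lists another class I gene, so no value is given for it.

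RNA came from mouse hepatic stellate cells, liver pericytes that store vitamin A and lay down scar matrix once activated, and was measured on 6 Affymetrix arrays. Old mice were 6 to 9 months of age and young mice 8 to 11 weeks, and every sample was a pool from 5 mice. At each age, 1 array held activated cells treated with C-82 at 10 µM (labelled PRI-724), 1 held activated cells given vehicle, and 1 held quiescent cells. Activated cells had been cultured on plastic for more than 20 days, and quiescent cells had been plated for 12 h from normal liver. PRI-724 is a prodrug and C-82 its active metabolite, a blocker of the contact between beta-catenin and the coactivator CBP. All groups shared the same culture medium with fetal bovine serum. Strain, sex and the time of exposure to C-82 are not given in the labels. Each group was a single array, and the spread within a group is therefore unknown.

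The proteasome cuts proteins into peptides, and interferon-gamma replaces its constitutive catalytic subunits Psmb5, Psmb6 and Psmb7 by Psmb8, Psmb9 and Psmb10. TAP then moves the peptides into the endoplasmic reticulum, where tapasin holds the transporter beside an empty heavy chain with B2m. Interferons raise most genes of this route, through STAT and IRF factors and the class I transactivator Nlrc5, and class I is found on nearly all nucleated cells, so it marks no liver cell type.

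The promoters of the heavy chains carry an NF-kappaB site and the X and Y boxes through which Nlrc5 acts. RefSeq windows on GRCm38.p6, from 250 bases before to 50 after a transcript start, were on hand for 9 of the 10 genes. The H2-K1 and H2-Q4 windows are shown because these heavy chains passed tests below, and the Tap1 window because it holds the stretch between Tap1 and Psmb9, which are transcribed away from each other. Capitals mark every match to the motifs listed after the sequences, on either strand. H2-K1 is given at chr17:34000284-34000583 (minus strand, the more downstream of its RefSeq starts), H2-Q4 at chr17:35379367-35379666 (plus strand) and Tap1 at chr17:34187306-34187605 (plus strand).
H2-K1: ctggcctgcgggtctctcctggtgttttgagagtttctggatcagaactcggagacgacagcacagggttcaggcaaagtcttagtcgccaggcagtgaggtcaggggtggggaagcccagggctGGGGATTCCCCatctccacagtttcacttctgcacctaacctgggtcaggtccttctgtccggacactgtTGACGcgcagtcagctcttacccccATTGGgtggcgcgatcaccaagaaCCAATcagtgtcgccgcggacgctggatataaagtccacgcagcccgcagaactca
H2-Q4: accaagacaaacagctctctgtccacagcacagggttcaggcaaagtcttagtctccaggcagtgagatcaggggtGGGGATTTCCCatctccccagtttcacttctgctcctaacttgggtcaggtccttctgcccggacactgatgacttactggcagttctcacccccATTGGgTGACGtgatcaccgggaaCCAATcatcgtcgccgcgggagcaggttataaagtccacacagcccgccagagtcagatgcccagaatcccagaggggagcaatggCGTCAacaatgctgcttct
Tap1: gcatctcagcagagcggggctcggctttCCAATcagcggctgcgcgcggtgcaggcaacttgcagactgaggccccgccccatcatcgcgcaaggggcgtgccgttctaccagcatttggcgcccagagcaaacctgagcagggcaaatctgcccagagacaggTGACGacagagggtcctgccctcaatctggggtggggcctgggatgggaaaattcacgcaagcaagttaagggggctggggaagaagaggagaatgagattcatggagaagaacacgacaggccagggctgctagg

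The motifs searched were the interferon-stimulated response element (GAAA, any 2 bases, GAAA), the gamma-activated site (TTCNNNGAA), the NF-kappaB consensus, the X2 box core (TGACG) and the Y box (CCAAT). Adjacent matches to the NF-kappaB consensus overlap each other. The NF-kappaB consensus was in the windows of 4 of the 9 genes (H2-K1, H2-D1, H2-Q4 and B2m), against 8.46% of all 32841 windows. The X2 box core was in 6 of 9, against 20.8% of all windows, and the Y box in 7 of 9, against 37.4%. The letters GAAA, any 2 bases, GAAA were in the B2m window only, against 3.44% of all windows. TTCNNNGAA was in that of Psmb8 only, against 8.3%. Variants of these letters were not searched, so a window without a match may still hold such an element. The windows of these 9 genes are not independent, since the heavy chain genes are close relatives and the Tap1 and Psmb9 windows share 275 bases. In H2-K1 the TGACG match precedes the reverse Y box (ATTGG), at positions -55 and -30 from the start, while in H2-Q4 it follows it, at -73 and -79. A match describes the letters and is no evidence of binding.

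Values below are deposited log2 signals, so a difference of 1 is a 2-fold difference in signal. State differences were fitted with limma over all 6 arrays with age in the model (n = 2 pairs, old and young), and the age difference with state in the model (n = 3 pairs). The error printed is limma's standard error (SE). Adjusted p-values are Benjamini-Hochberg values over all 15526 genes with a threshold of 0.05. They weigh a difference against the scatter that age and state leave over all 6 arrays, not over the named pairs alone. Limma draws this scatter toward that of other genes (2 residual and 7.76 prior degrees of freedom). A gene therefore has the same SE in all 3 state comparisons. With 1 pool in each group the p-values hold no biological replicate within a group. The young PRI-724 array had a narrower distribution of signals than the other 5, with an interquartile range of 1.71 log2 units over the tested genes, against 2.11 to 2.43 on the others. Stellate cell markers such as Col1a1, Acta2 and Des were measured on all arrays, and of the 12 tested 7 rose and 1 fell in vehicle-treated against quiescent cells. Markers of other liver cells were also measured, and their values stand beside the results they move with.

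All 9 measured members had their highest signal on the young quiescent array, as did 16.5% of all tested genes. The lowest signal lay on the old vehicle array for H2-K1, H2-Q4 and B2m, on the young PRI-724 array for Tap1, Psmb9 and Psmb10, on the old PRI-724 array for Tapbp and Psmb8, and on the old quiescent array for Tap2. These arrays held the lowest value of 11.2%, 26.9%, 10.2% and 11.8% of all tested genes in the same order. The range over the 6 arrays went from 0.65 log2 units for B2m to 2.79 for H2-Q4.

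**Figure D1:**
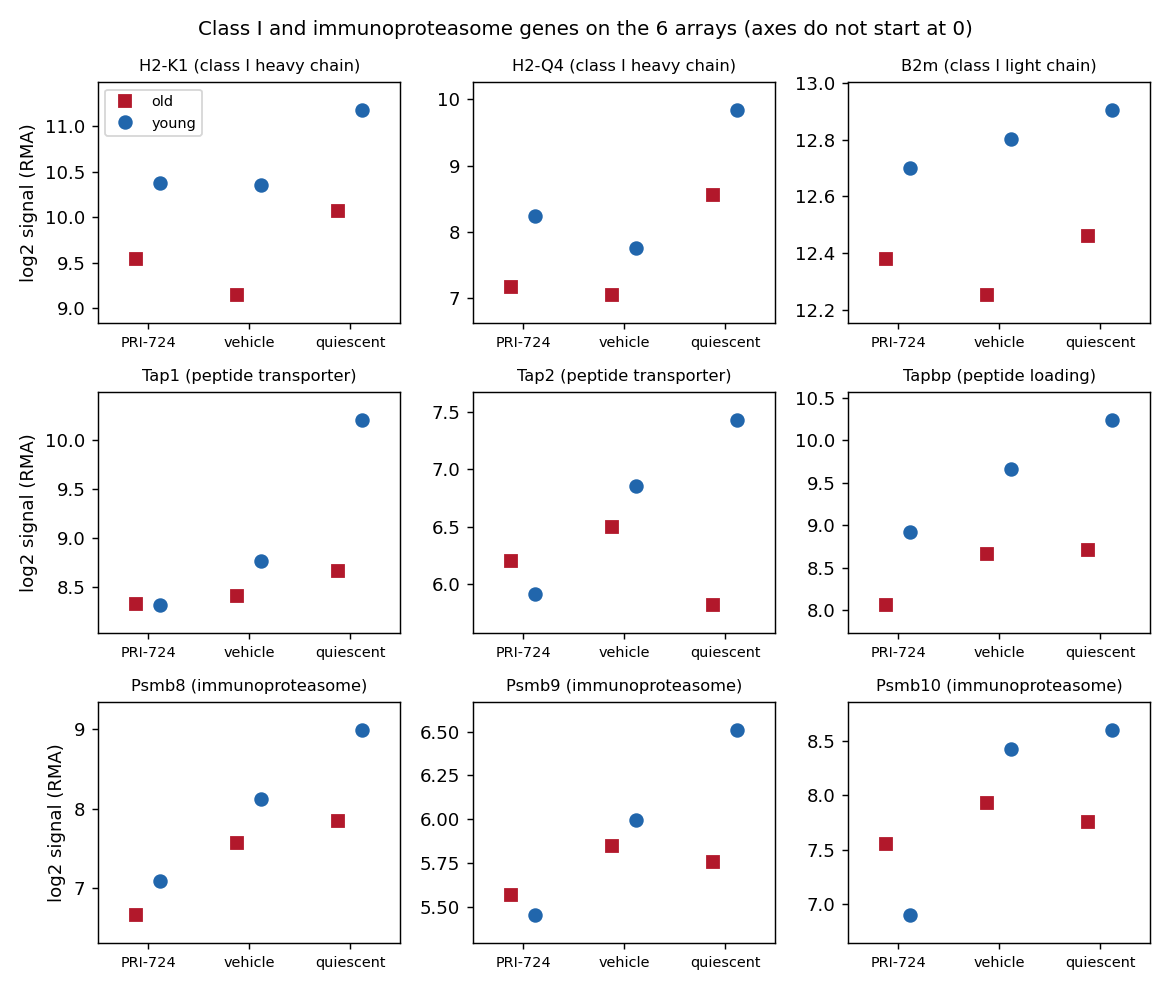
Log2 signal (y axis, a separate scale in each panel that does not start at 0) of the 9 measured members in PRI-724-treated, vehicle-treated and quiescent cells (x axis), with squares for old and circles for young mice. Each point is 1 array of RNA pooled from 5 mice, and the young quiescent array is the highest in every panel.

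The age comparison asked how cells of old mice differ from those of young mice in the same state. H2-K1 fell in cells of old mice, and the other 8 members, all with an estimate below 0, did not pass the test. H2-K1, a classical heavy chain, had log2 signals of 9.53, 9.14 and 10.07 in old PRI-724, vehicle and quiescent cells, against 10.38, 10.35 and 11.18 in the young cells of the same states. Every old array was below every young array. H2-K1 fell by 1.06 ± 0.18 (SE, n = 3 pairs, limma adjusted p = 0.0378), or 2.08-fold, in old cells. It was 1 of 9 members called lower, with 0 called higher, against 0.251% and 0.264% of all tested genes, and 5 of 9 had an unadjusted p under 0.05, against 10.4%. The call was lost without the old or the young PRI-724 array, in both cases at -1.17 with an adjusted p of 0.222, and after cyclic loess at -1.15 (adjusted p = 0.0617).

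B2m and Tapbp were the other members whose old and young arrays did not overlap, which makes 3 of 9 lower without overlap, against 3.53% of all tested genes. B2m, the light chain shared by all class I molecules, had 12.38, 12.25 and 12.46 in old PRI-724, vehicle and quiescent cells, against 12.70, 12.80 and 12.91 in young cells. Its difference was -0.44 ± 0.10 (limma adjusted p = 0.123). It was small, with a range of -0.55 to -0.32 over the 3 states, and its limma adjusted p was 0.00382 and 0.00924 without the old or young quiescent array, but 0.445 and 0.446 without the old or young PRI-724 array. Tapbp, which holds the empty heavy chain for loading, had 8.06, 8.66 and 8.71 in the 3 old states, against 8.92, 9.66 and 10.24 in the young ones. The difference of -1.13 ± 0.22 missed the threshold (limma adjusted p = 0.0691). With an array left out, the adjusted p lay between 0.0306, without the old vehicle array, and 0.359, without the young quiescent array. A second Tapbp probe set differed by -0.11, -0.40 and -0.27 in PRI-724, vehicle and quiescent cells, the same direction at a smaller size.

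H2-Q4, a nonclassical heavy chain of the Q region, had 7.17, 7.04 and 8.56 in old PRI-724, vehicle and quiescent cells, against 8.24, 7.76 and 9.84 in young cells. It was lower in the old member of each pair, while the old quiescent value stood above the young vehicle and PRI-724 values. Its difference was -1.02 ± 0.23 (limma adjusted p = 0.113). A second H2-Q4 probe set differed by -0.48 in PRI-724, -0.40 in vehicle and 0.30 in quiescent cells, so the probe sets disagree in quiescent cells. Psmb8, the immunoproteasome subunit that replaces Psmb5, had 6.66, 7.56 and 7.84 in the 3 old states, against 7.09, 8.12 and 8.99 in the young ones, with a difference of -0.71 ± 0.24 (limma adjusted p = 0.323). In total 5 of 9 members were lower with age in all 3 states and 0 were higher in all 3, against 11.3% and 21% of all tested genes.

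For the remaining 4 members the old minus young difference was above 0 in PRI-724 cells and below 0 in vehicle and quiescent cells. It was largest in size in quiescent cells, as it also was for H2-Q4, Tapbp and Psmb8. Tap1, a transporter subunit, had 8.33, 8.40 and 8.66 in old PRI-724, vehicle and quiescent cells, against 8.32, 8.77 and 10.20 in young cells. Tap2, its partner, had 6.20, 6.50 and 5.81, against 5.91, 6.86 and 7.43. Their old minus young differences were -1.54 and -1.62 in quiescent cells, -0.36 for both in vehicle cells, and 0.01 and 0.29 in PRI-724 cells. Psmb9, whose start faces that of Tap1 across the promoter printed above, had 5.57, 5.85 and 5.76 in the old states, against 5.45, 6.00 and 6.51 in the young ones. Psmb10, the third immunoproteasome subunit, had 7.56, 7.93 and 7.76, against 6.90, 8.43 and 8.60. None of these 4 passed the test (limma adjusted p from 0.507 to 0.850). Over the 9 members the median age difference was -1.15 in quiescent, -0.55 in vehicle and -0.32 in PRI-724 cells. Over all tested genes it was 0.03, 0.01 and 0.17, and over the 3882 brightest of them 0.05, -0.03 and 0.41. The dependence on state was not tested, since the model has no degrees of freedom left for it.

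**Figure D2:**
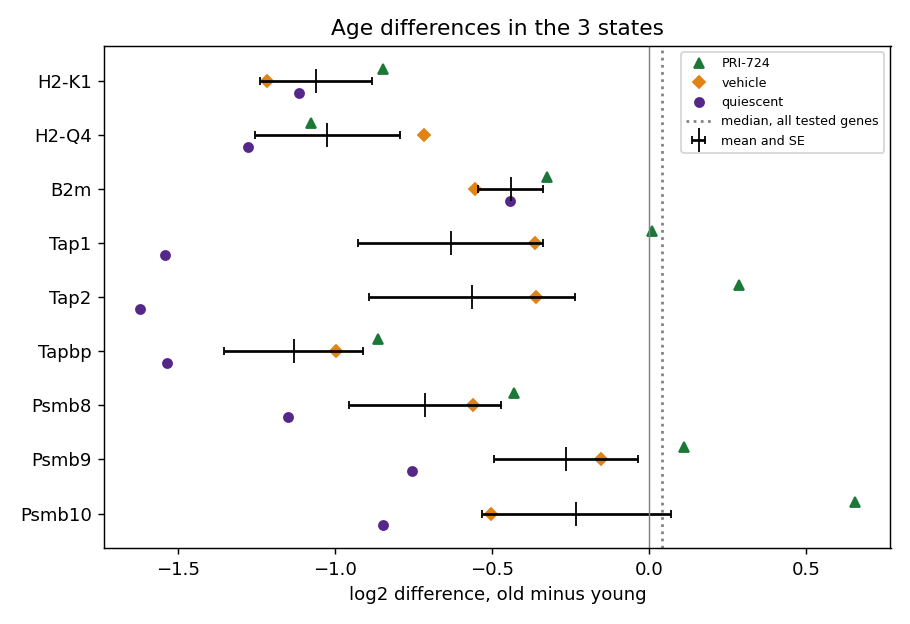
Old minus young difference in log2 signal (x axis) for each member, with a triangle for PRI-724, a diamond for vehicle and a circle for quiescent cells, and a black bar for the mean and SE of the limma fit. All 9 quiescent differences lie between -1.62 and -0.44, while 4 of the PRI-724 differences are above 0, and the dotted line is the median of all tested genes at 0.04.

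Other genes of the class I route were read from lists, which were drawn up with earlier results of these data known. Of 12 further class I and class I-like heavy chains 1 fell with age and 0 rose. That gene was H2-Q5, at -1.39 ± 0.22 (limma adjusted p = 0.0318), with 5.57, 5.56 and 7.70 in old PRI-724, vehicle and quiescent cells, against 6.85, 6.80 and 9.37 in young cells. H2-T10 and H2-T23 stood at -1.46 ± 0.27 and -1.15 ± 0.29 (limma adjusted p = 0.0557 and 0.160). Mr1, which presents vitamin B metabolites, was higher in old cells in all 3 states, at 0.81 ± 0.23 (limma adjusted p = 0.209). H2-K1 and the genes of the H2-Q and H2-T families are close relatives that may share probes, so their values may not be separate measurements.

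The constitutive proteasome was measured beside the immunoproteasome. Of 12 genes of the 20S core 0 passed limma's test with age in either direction and 1 had an unadjusted p under 0.05, with a median of 0.04 beside one of -0.63 over the members and 0.04 over all tested genes. Psmb5, the subunit that Psmb8 replaces, had 9.00, 8.73 and 8.63 in old PRI-724, vehicle and quiescent cells, against 8.18, 7.90 and 8.00 in young cells. Its difference was 0.76 ± 0.22 (limma adjusted p = 0.219), higher with age in 3 of 3 states, where Psmb8 was lower in 3 of 3. Psmb6 and Psmb7 stood at 0.17 ± 0.22 and 0.09 ± 0.21, and the proteasome activator gene Psme1 at -0.68 ± 0.30 and Psme2 at -0.23 ± 0.25. Of 9 loading and trimming partners 0 passed in either direction, and 0 had an unadjusted p under 0.05.

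Among regulators of the route, Irf9 and Stat2, which form the transcription factor of type I interferon signalling, fell with age. Irf9 stood at -1.43 ± 0.23 (limma adjusted p = 0.0318) and Stat2 at -1.71 ± 0.30 (limma adjusted p = 0.0499), and they were 2 of 21 regulators that fell while 0 rose. Nlrc5 had 5.73, 5.78 and 5.38 in old PRI-724, vehicle and quiescent cells, against 5.99, 6.18 and 7.53 in young cells, at -0.94 ± 0.34 (limma adjusted p = 0.373). Irf1 stood at -0.98 ± 0.27 (limma adjusted p = 0.201). Of the interferon-stimulated genes 11 of 20 fell with age and 0 rose, with a median of -2.27 over the list. Irf7, a driver of interferon production, stood at -2.48 ± 0.25 and the antiviral gene Ifit1 at -3.42 ± 0.39 (limma adjusted p = 0.00512 and 0.00559). Without the old or the young PRI-724 array, limma called 0 of 15526 genes with age, so the age calls of these genes, of Irf9, Stat2 and H2-Q5, and of the hepatocyte markers described next were all lost.

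Hepatocyte markers moved with age in the other direction. Of 12 hepatocyte genes 5 rose in old cells (Alb, Apob, Serpina1c, Ahsg and Fgb) and 0 fell. Their summed linear signal was 2840, 2415 and 12280 in old PRI-724, vehicle and quiescent cells, against 1298, 519.1 and 1447 in young cells, higher in old cells in each state. Of 14 macrophage and 14 sinusoidal endothelial markers 0 passed limma's test with age, with 3 and 1 at an unadjusted p under 0.05. The macrophage sum was 2086, 9549 and 14080 in old PRI-724, vehicle and quiescent cells, against 1411, 10090 and 6586 in young cells. The endothelial sum was 3084, 12190 and 9836 in old cells of these states, against 1421, 13730 and 21200 in young cells. The T and NK cell list had a median of -0.40 (7 genes), the dendritic cell list -0.33 (7 genes) and the B cell list 0.07 (4 genes), with 0 past the threshold in each and 2, 1 and 0 at an unadjusted p under 0.05. The part of cell content in the class I difference was not tested. In RNA from bulk cells, fewer cells of a type and less RNA per cell cannot be told apart.

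The activation comparison set vehicle-treated activated cells against quiescent cells of the same age. The heavy chains H2-Q4 and H2-K1 fell, while B2m and the 6 genes of peptide supply and loading did not pass the test. H2-Q4 had 7.04 and 7.76 in old and young vehicle cells, against 8.56 and 9.84 in old and young quiescent cells. Both vehicle values lay below both quiescent values, and this was the 1 member of 9 lower without overlap, against 24.9% of all tested genes. H2-Q4 fell by 1.80 ± 0.28 (SE, n = 2 pairs, limma adjusted p = 0.00903), or 3.47-fold, and H2-K1 by 0.88 ± 0.22 (limma adjusted p = 0.0463), or 1.84-fold. These were 2 of 9 members lower and 0 higher, against 1.26% and 4.61% of all tested genes, and 3 of 9 had an unadjusted p under 0.05, against 22.4%. H2-K1 lost its call with each array left out in turn (adjusted p from 0.0656 to 0.237), and H2-Q4 lost it without the young vehicle array (0.0639). The second H2-Q4 probe set differed by -0.87 in the old and -0.16 in the young pair.

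For the other members the old and young pairs gave unequal values, and the difference between ages was not tested. Tap1 stood at -0.26 in the old and -1.43 in the young pair, with an average of -0.84 ± 0.36 (limma adjusted p = 0.203). It was -0.16 (adjusted p = 0.943) without the young quiescent array and -1.53 (0.0352) without the old one. Tap2 stood at 0.68 in the old and -0.58 in the young pair. The immunoproteasome subunits were lower in vehicle cells of the young pair, with Psmb8 at -0.87, Psmb9 at -0.51 and Psmb10 at -0.17. In the old pair they stood at -0.28, 0.09 and 0.17. B2m differed by -0.21 and -0.10 and Tapbp by -0.04 and -0.58 in the old and young pair. In all, 6 of 9 members were lower in both pairs and 0 higher in both, against 33.4% and 40.7% of all tested genes. The median over the members was -0.31, beside 0.04 over all tested genes.

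Among the further heavy chains, H2-Q5 fell and Mr1 rose with activation, 1 of 12 each way. H2-Q5 stood at -2.35 ± 0.28 (limma adjusted p = 0.00408) and Mr1 at 1.77 ± 0.28 (limma adjusted p = 0.00906). Mr1 had 9.09 and 8.49 in old and young vehicle cells, against 7.42 and 6.62 in quiescent cells, so its groups did not overlap. Of 9 loading partners 0 passed limma's test and 2 had an unadjusted p under 0.05, and 8 were higher in both pairs, such as the endoplasmic reticulum chaperone Calr at 0.76 ± 0.28 (limma adjusted p = 0.145), while 1, Hspa5, was lower in both. Of 12 core proteasome genes and of 21 regulators 0 passed, with 0 and 2 at an unadjusted p under 0.05. Of 20 interferon-stimulated genes 2 fell, the antiviral gene Rsad2 at -2.26 ± 0.44 and Oasl1, a negative regulator of interferon production in mice, at -2.10 ± 0.50 (limma adjusted p = 0.0196 and 0.0394). In this list 14 of 20 were lower in both pairs and 0 higher, 10 had a limma unadjusted p under 0.05, and the median was -0.82.

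Beside these values, 3 of 12 hepatocyte markers fell with activation and 0 rose. All 12 hepatocyte markers were lower in both pairs, 11 had a limma unadjusted p under 0.05, and the median was -1.70. Their summed linear signal was 2415 and 519.1 in old and young vehicle cells, against 12280 and 1447 in quiescent cells. Of 14 macrophage markers 1 rose (Vsig4) and of 14 endothelial markers 3 rose (Oit3, Kdr and Emcn). In both pairs 1 macrophage marker was higher and 3 were lower (median -0.06), and 5 endothelial markers were higher and 3 lower (median 0.16). The macrophage sum was 9549 and 10090 in old and young vehicle cells, against 14080 and 6586 in quiescent cells. The endothelial sum was 12190 and 13730, against 9836 and 21200. The part of cell content in the fall of the heavy chains was not tested.

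The PRI-724 comparison asked what C-82 did to activated cells. Of 9 members 0 passed limma's test in either direction, against 1.93% of all tested genes called lower and 0.271% higher. The largest differences in size were those of the immunoproteasome subunits Psmb8 and Psmb10. Psmb8 had 6.66 and 7.09 in old and young PRI-724 cells, against 7.56 and 8.12 in old and young vehicle cells, at -0.97 ± 0.30 (SE, n = 2 pairs, limma adjusted p = 0.152). Both PRI-724 values were below both vehicle values. Psmb10 had 7.56 and 6.90, against 7.93 and 8.43, at -0.95 ± 0.37 (limma adjusted p = 0.255), with most of the difference in the young pair. Tapbp had 8.06 and 8.92, against 8.66 and 9.66, at -0.67 ± 0.27 (limma adjusted p = 0.273), and its groups overlapped. These 3 had an unadjusted p under 0.05, as did 15.5% of all tested genes.

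H2-K1 had 9.53 and 10.38 in old and young PRI-724 cells, against 9.14 and 10.35 in vehicle cells, at 0.21 ± 0.22 (limma adjusted p = 0.668). H2-Q4 stood at 0.30 ± 0.28 (limma adjusted p = 0.633), and both heavy chains were higher in each pair, 2 of 9 members against 25.8% of all tested genes. The second H2-Q4 probe set stood at -0.10 and -0.03 in the old and young pair, so the direction for H2-Q4 depends on the probe set. B2m stood at 0.01 ± 0.13, with 0.13 in the old and -0.10 in the young pair. The remaining 6 of 9 members were lower in both pairs, against 35% of all tested genes. In 5 of 9 members both PRI-724 values lay below both vehicle values, against 26.3% of all tested genes. Genes lower without overlap are always lower in both pairs, so the 2 counts are not separate results. The 6 members included Tap1 at -0.27 ± 0.36, Tap2 at -0.62 ± 0.40 and Psmb9 at -0.41 ± 0.28. Whether heavy chains and supply genes differ in response was not tested. The members' median was -0.28 in the old and -0.54 in the young pair, beside -0.01 and -0.14 over all tested genes, and -0.00 and -0.42 over the 3882 brightest of them. Without the young PRI-724 array the fitted median of the members was 0.02. That fit takes the age difference from vehicle and quiescent cells. The old pair alone does not use the young PRI-724 array, and its median was -0.28.

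The constitutive counterparts were Psmb5 at 0.28 ± 0.26, Psmb6 at 0.08 ± 0.27 and Psmb7 at -0.34 ± 0.26 in PRI-724 against vehicle cells, and 0 of 12 core genes passed limma's test or had an unadjusted p under 0.05. Of 12 further heavy chains 0 passed and 1 had an unadjusted p under 0.05, namely Mr1 at -1.17 ± 0.28 (limma adjusted p = 0.0699). Among 9 loading partners 0 passed and 3 had an unadjusted p under 0.05, with the peptide-trimming enzyme Erap1 at -0.93 ± 0.33. Irf8, an interferon-regulated factor of myeloid cells, was the 1 of 21 regulators that fell, at -1.51 ± 0.33 (limma adjusted p = 0.0471). Of 20 interferon-stimulated genes 0 passed and 8 had an unadjusted p under 0.05, with a median of -1.01 and 16 lower in both pairs.

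Macrophage and endothelial markers fell with PRI-724, 11 of 14 and 13 of 14. The macrophage sum was 2086 and 1411 in old and young PRI-724 cells, against 9549 and 10090 in vehicle cells. The endothelial sum was 3084 and 1421, against 12190 and 13730. The dendritic cell marker Itgax and the stellate cell gene Lrat fell too, 1 of 7 and 1 of 12 in their lists. Of the 7 dendritic cell markers, however, 4 were higher in both pairs and 2 lower, with a median of 0.39. Of the 12 stellate cell genes 11 were lower in both pairs and 0 higher. Of these 12, 8 had a limma unadjusted p under 0.05, and the list's median was -1.03. Of 12 hepatocyte markers 0 passed, 7 were higher in both pairs and 0 lower, with a median of 0.63. Without the young PRI-724 array limma called 0 of 15526 genes in this comparison, so these marker calls and that of Irf8 were lost. Macrophages and endothelial cells express class I and immunoproteasome genes, and their part in the lower Psmb8, Psmb10 and Tapbp values was not tested.

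**Figure D3:**
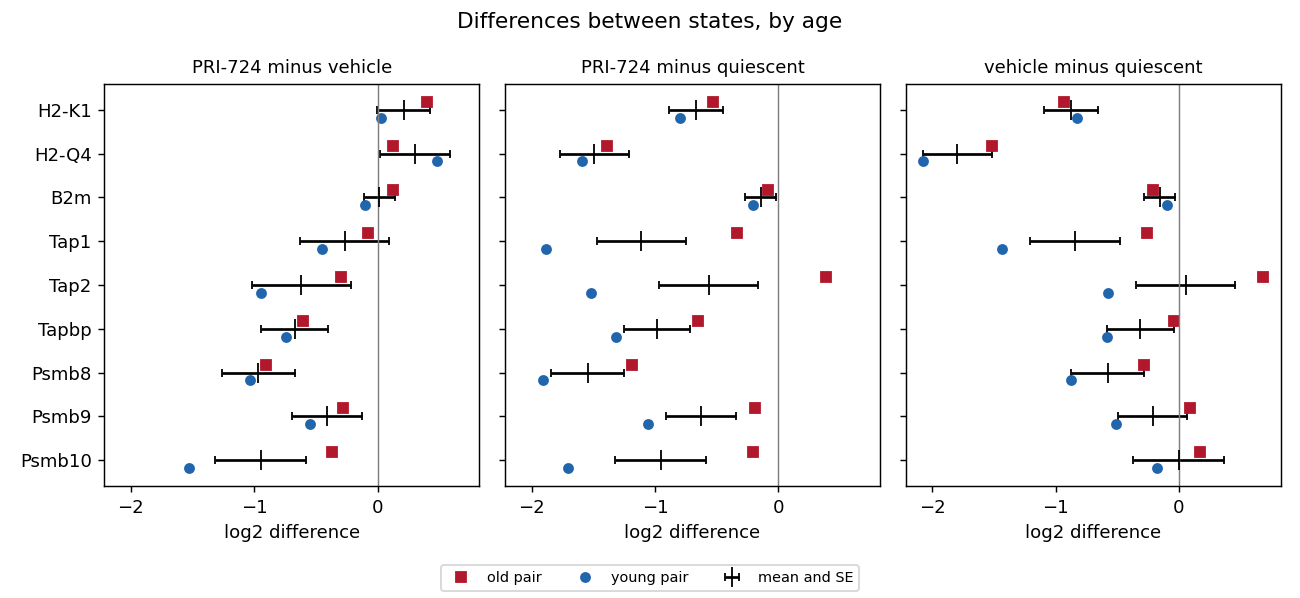
Differences in log2 signal (x axis) for each member in 3 comparisons of states, with squares for the old pair, circles for the young pair, and a black bar for the mean and SE of the limma fit. H2-K1 and H2-Q4 lie to the right of 0 for PRI-724 minus vehicle while the 6 genes from Tap1 to Psmb10 lie to the left, and against quiescent cells both heavy chains lie to the left.

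Set against quiescent cells, PRI-724-treated cells had lower H2-Q4 and Psmb8. This comparison shares its arrays with the other state comparisons. H2-Q4 had 7.17 and 8.24 in old and young PRI-724 cells, against 8.56 and 9.84 in quiescent cells, and fell by 1.49 ± 0.28 (SE, n = 2 pairs, limma adjusted p = 0.0190). Psmb8 had 6.66 and 7.09, against 7.84 and 8.99, and fell by 1.54 ± 0.30 (limma adjusted p = 0.0205), or 2.91-fold. For both genes each PRI-724 value was below each quiescent value. They were 2 of 9 members lower and 0 higher, against 2.43% and 1.28% of all tested genes, and 6 of 9 had an unadjusted p under 0.05, against 16.3%. H2-Q4 lost its call without the young quiescent (adjusted p = 0.235), the young PRI-724 (0.145) or the old PRI-724 array (0.123), and with the mean of its probe sets (-1.04, 0.0669). Psmb8 lost its call without the same arrays (0.318, 0.174 and 0.0986).

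Tapbp stood at -0.98 ± 0.27 (limma adjusted p = 0.0849), Tap1 at -1.11 ± 0.36 (limma adjusted p = 0.142) and H2-K1 at -0.67 ± 0.22 (limma adjusted p = 0.143). Tap1 depended on single arrays in both directions. It stood at -0.43 (limma adjusted p = 1) without the young quiescent and -0.63 (0.494) without the young PRI-724 array, and at -1.79 (0.00599) without the old quiescent and -1.59 (0.183) without the old PRI-724 array. It also passed without the old (0.0397) or young (0.0383) vehicle array. Tap2 was the exception in direction, at 0.39 in the old and -1.52 in the young pair, and the other 8 members were lower in both pairs and 0 higher in both, against 24.9% and 30.8% of all tested genes. In 5 of 9 both PRI-724 values were below both quiescent values, against 18% of all tested genes. The members' median was -0.33 in the old and -1.52 in the young pair, beside 0.03 and 0.05 over all tested genes. Of the further heavy chains H2-Q5 and H2-T23 fell, at -2.32 ± 0.28 and -1.62 ± 0.35 (limma adjusted p = 0.00185 and 0.0352), and 10 of 20 interferon-stimulated genes fell while 0 rose. Without the young PRI-724 array 0 of 15526 genes were called, so these and the following list calls were lost. Of 14 macrophage markers 12 fell and of 14 endothelial markers 9 fell. Of 12 hepatocyte markers 1 fell and 7 had an unadjusted p under 0.05, with a median of -1.10 and a summed signal of 2840 and 1298 in old and young PRI-724 cells, against 12280 and 1447 in quiescent cells. Of 12 stellate cell markers 2 rose (Des and Acta2) and 1 fell (Rgs5), and of 4 B cell markers 1 fell (Cd22). The part of cell content in these differences was not tested.

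Over all 6 arrays the members' mean profile, with each gene centred on its own mean, reached 1.05 log2 units in young quiescent cells and 0.25 in young vehicle cells. It was -0.10, -0.35, -0.29 and -0.56 on the old quiescent, old vehicle, young PRI-724 and old PRI-724 arrays. Interferon-stimulated genes had their highest mean on the young quiescent array too, at 2.47, and their lowest on the old PRI-724 array, at -1.50. The mean over the 12 core proteasome genes stayed between -0.25 and 0.11. Single core genes could vary more, such as Psmb5 from 7.90 on the young vehicle to 9.00 on the old PRI-724 array. Closest to the members' profile among named genes were Bcl2l11, a proapoptotic BH3-only gene, with a root mean square difference of 0.09 log2 units over the 6 arrays, then N4bp2l1 at 0.11, and Srsf10, Calhm6 and Znrf1 at 0.12 each. These genes were picked for likeness among 15526, so the likeness is a description.

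**Figure D4:**
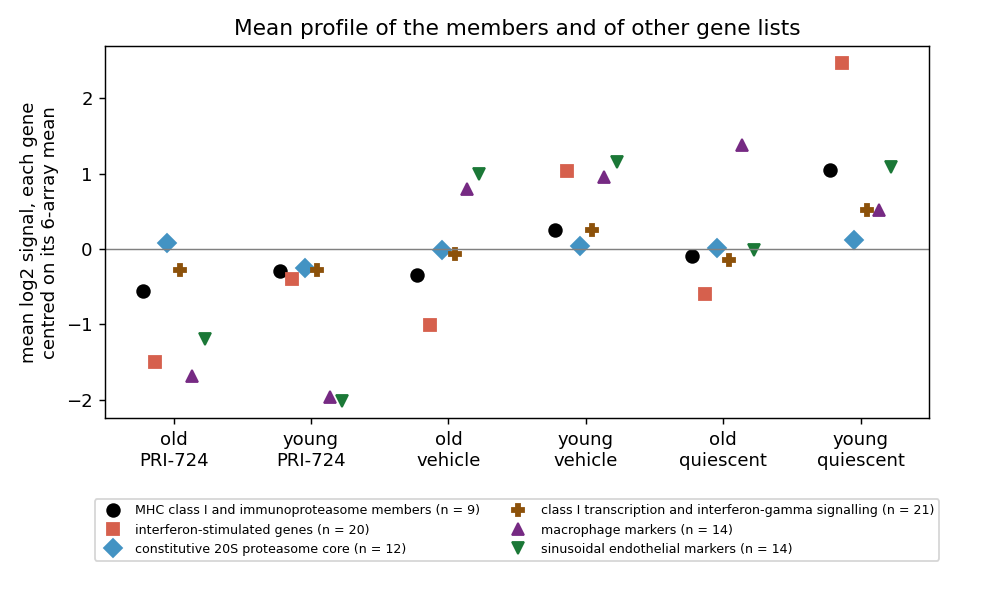
Mean log2 signal of the members and of other gene lists on each array (x axis), with every gene centred on its mean over the 6 arrays (y axis). The members (circles) and interferon-stimulated genes (squares) are highest on the young quiescent array at 1.05 and 2.47, the core proteasome (diamonds) stays near 0, and macrophage and endothelial markers (triangles) are lowest on the PRI-724 arrays.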

How the data were processed

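The deposited values are log2 signals of 41345 probe sets on 6 arrays, made by the authors with Affymetrix Expression Console and RMA, per the submitters' processing notes. Their versions, options and genome build were not stated. RNA was purified on RNeasy columns and labelled with the WT PLUS kit, per the labels' protocols. Over the tested genes the arrays still differed in spread, and quantile normalization was tried as an alternative.

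The platform table named 1 gene for 23521 probe sets, several for 1814 and none for 16010. Each gene was represented by its brightest probe set, and the 30% of genes with the lowest mean (under 4.70) were left out. Differences were fitted with limma 3.58.1 (R 4.3.3) on age and state with an intensity trend, 2 residual and 7.76 prior degrees of freedom, and Benjamini-Hochberg adjustment. The fit was tested on simulated data. Promoters came from RefSeq on GRCm38.p6. Named genes were the members, list genes past the threshold or else up to 4 with the largest difference, a fixed set of class I, proteasome and regulator genes, and the 5 genes closest to the members' profile. Members and lists were chosen with earlier results of these data known. The number of arrays limits the precision.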

Additional observations from a re-analysis of the deposited data

Results flagged for a closer look

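Opposite directions at the 2 ages were seen for 3 members with activation. The old and young vehicle minus quiescent differences were 0.68 and -0.58 for Tap2 (a gap of 1.26 log2 units), 0.09 and -0.51 for Psmb9 (a gap of 0.60), and 0.17 and -0.17 for Psmb10 (a gap of 0.34). For PRI-724 minus vehicle, B2m had 0.13 and -0.10 (a gap of 0.23), and for PRI-724 minus quiescent, Tap2 had 0.39 and -1.52 (a gap of 1.91).

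The old minus young difference changed sign between states for 4 members. In PRI-724, vehicle and quiescent cells it was 0.01, -0.36 and -1.54 for Tap1 (highest minus lowest 1.55), 0.29, -0.36 and -1.62 for Tap2 (1.91), 0.11, -0.15 and -0.75 for Psmb9 (0.87), and 0.65, -0.50 and -0.85 for Psmb10 (1.50). The state in which these 4 were higher with age was PRI-724, which holds the young array with the narrow range. The other 5 members were lower with age in PRI-724 cells, from -1.075 to -0.32. Whether the narrow range plays a part was not tested. None of these differences between groups was tested, since each rests on 1 array per group.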

How the results depend on the processing

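The reported fits pair the states by age and the ages by state, and the fit without that covariate is the unpaired one. No paired analysis was possible by replicate number because every group has 1 array. Members called lower with activation, 2 in the report, were 1 with no filter on signal, with the mean of probe sets, without an intensity trend and with the arrays of the 2 states only, 0 without age in the model, and 0 to 2 with an array left out. Those lower in PRI-724 against quiescent cells, also 2, were 1 with the mean of probe sets, 0 without age, and 0 to 3 with an array left out. With age, 1 member was called lower, 0 without an intensity trend, without state in the model, after cyclic loess or quantile normalization, and 0 to 2 with an array left out. For PRI-724 minus vehicle 0 members were called under every alternative, and 3 had an unadjusted p under 0.05. No member was called higher in any comparison or alternative, and no called member changed direction.

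Over all tested genes, 911 passed with activation, against 114 without age, 481 with the arrays of the 2 states, 482 after cyclic loess, 331 after quantile normalization and 318 to 1230 with an array left out. For PRI-724 minus vehicle 341 passed, against 91, 965, 103 and 84 in the same order and 0 to 968 with an array left out, the 0 being without the young PRI-724 array. For PRI-724 minus quiescent 577 passed, against 217 without age, 1064 with the arrays of the 2 states and 0 to 1053 with an array left out. With age 80 passed, against 0 without state, 7 after cyclic loess, 12 after quantile normalization and 0 to 343 with an array left out. With a call count of 0, limma's unadjusted p was under 0.05 for 581 genes (age, without state), 997 (PRI-724 minus vehicle) and 2763 (PRI-724 minus quiescent) without the young PRI-724 array, and 1642 and 1644 (age) without the old or young one. Genes called with age split into 41 higher and 39 lower, against 2 and 5 after cyclic loess and 4 and 8 after quantile normalization. The members' median for PRI-724 minus vehicle was -0.41, and -0.75 to 0.02 with an array left out (0.0195 without the young and -0.7473 without the old PRI-724 array). Leaving out an array left 1 residual degree of freedom, and its lone partner was assumed to vary like the other groups. The cause of these shifts was not tested, and background correction could not be varied from summarised values.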
